A study of Mus musculus with 24 samples.

Results

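Solute carriers are membrane proteins that move amino acids, sugars, ions, metals, cofactors and metabolites across the plasma membrane and the membranes of organelles, without splitting ATP themselves. The transcripts described here are those whose gene symbol begins with Slc, a family number and a letter. Of 8315 gene symbols on the array 140 met this rule, and the 83 with values on at least 2 arrays of each day were tested. In liver, carriers bring amino acids, bile acids, zinc and iron into hepatocytes. The Slc25 family exchanges nucleotides and cofactors across the inner mitochondrial membrane, and most of the Slc35 family feeds nucleotide sugars to the Golgi apparatus for glycosylation. Carriers of the lysosomal membrane return amino acids and other breakdown products to the cytosol.

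The cells were HBC-3, a mouse hepatoblast line, which is a progenitor able to take on hepatocyte or bile duct features. Matrigel, a basement membrane gel, was used to induce differentiation for 1 to 7 days. The day 0 group was undifferentiated HBC-3 cells. STO fibroblasts, on which the line is maintained, had been removed by trypsin and replating on plastic before harvest. Each of the 8 days had 3 arrays, lettered A, B and C, 24 in all. Every array set amplified RNA of the sample, in Cy5, against amplified RNA of undifferentiated HBC-3 cells, in Cy3, so both channels of a day 0 array held undifferentiated cells. All groups share this 1 line and 1 reference, and the labels do not state if cultures were grown separately for each array. If they were not, the p-values below measure technical spread only.

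Of the 8 hepatoblast and hepatocyte markers on a list only Afp could be tested, and of 5 bile duct markers 0 could, so the data hold little to check the cell type with. Afp, the fetal albumin of hepatoblasts, stood at 1.93 ± 0.69 at day 7 (log2 difference from day 0, adjusted p = 0.0427), a call lost without any 1 day 0 array or day 7 array B or C (1.29 to 2.20 in those 5 removals) and at 0.78 with the signs of the day 0 arrays turned (adjusted p = 0.522). Of 24157 features an array held values for between 12328 and 22149. The C arrays of days 4 to 7 stood apart: over all features they correlated with each other at 0.808 to 0.967, and with arrays A and B of their own day at 0.468 to 0.624. The day 0 arrays differed as well, with correlations of 0.755 for A with B, -0.343 for A with C and 0.084 for B with C. Day 0 arrays A and B correlated below 0 with every later array but day 6 B (0.129 and 0.009), down to -0.504 and -0.425 with day 3 B. Day 0 array C lay between -0.206 (day 7 C) and 0.278 (day 3 B). All differences from day 0 rest on these 3 arrays. No source used here names the numerator of the ratio. Because of the day 0 correlations above, carrier calls at days 1 and 7 are also given with all day 0 signs turned. That setting supposes that the day 0 arrays alone run opposite to the later ones, and it does not check the direction of the whole series. Of 16 fibroblast markers 9 were tested, and their median log2 ratio was -0.88, -0.58 and 0.11 at day 0 (arrays in the order A, B, C here and below) and 0.50, 0.36 and 0.40 at day 7. At day 3 it was 1.00, 1.11 and 1.03. Against day 0, 3, 6, 6, 5, 3, 4 and 3 of the 9 were higher on days 1 to 7 and 0 lower, with a median difference of 0.97 at day 1, 1.27 at day 3 and 0.78 at day 7. The share of all units higher lay between 4.99% and 14.6% on these days. At day 7 the 3 markers called were Dcn (6.06), Pdgfrb (1.82) and Prrx1 (0.95). Against the reference channel they stood at 3.86, 1.55 and 0.72, all past the threshold. Dcn kept its call in 17 of 18 alternatives, Pdgfrb in 16 of 17 and Prrx1 in 13 of 17. Each missed the threshold with day 0 signs turned (1.65, 1.28 and 0.49). The part of fibroblasts in the results below was not tested. In a bulk measurement, a change in the number of cells of a type and a change in RNA per cell cannot be told apart.

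The stretches before the start sites of 6 carrier genes are shown first, since 5 of them share a short motif. All 6 were past the threshold at day 7 in the limma fit described below (adjusted p under 0.05). Slc12a7 and Slc25a13, which have the motif and missed that threshold, are not shown. The F-test over the course, also below, did not call Slc36a1 or Slc30a1 (adjusted p = 0.195 and 0.121). The motif TCACGTG was searched on both strands, where it reads CACGTGA on the other. It is an E-box of the kind bound by the lysosomal regulators TFEB and TFE3 and by other factors. Because its core is a palindrome, matches on the 2 strands can overlap. Sequences are from RefSeq, build GRCm38.p6, written 5′ to 3′ on the strand of the gene, and end at or before its start site. Capitals mark the motif. Slc36a1 (plus strand, chr11:55204279-55204339), Slc37a3 (minus strand, chr6:39377708-39377751) and Slc49a4 (minus strand, chr16:35769541-35769607) encode carriers of the lysosomal membrane. Slc25a36 (minus strand, chr9:97111192-97111259) encodes a mitochondrial carrier, and Slc20a1 (plus strand, chr2:129198720-129198772) the phosphate carrier, the one gene of these with the motif that fell.
Slc36a1: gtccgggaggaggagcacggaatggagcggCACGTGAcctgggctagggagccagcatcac
Slc37a3: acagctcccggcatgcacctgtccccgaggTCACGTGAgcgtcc
Slc49a4: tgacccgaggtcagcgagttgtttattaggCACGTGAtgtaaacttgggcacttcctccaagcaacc
Slc25a36: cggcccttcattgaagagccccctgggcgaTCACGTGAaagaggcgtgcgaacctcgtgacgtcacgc
Slc20a1: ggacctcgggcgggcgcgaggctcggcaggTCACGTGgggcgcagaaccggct

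Promoters of 65 of the 83 tested members were in the table, as 250 bases before to 50 after a start site. The motif was in 9 of these 65 genes (13.8%), against 1160 of all 27025 genes (4.29%) and 1237 of all 32851 promoters (3.77%). These sets are unlike, since the 65 were measured on the arrays and the 27025 are all genes with a promoter listed, measured or not. The difference in share is therefore not one between carriers and comparable genes. The other members with the motif were Slc12a7, Slc25a13, Slc35a5 and Slc51a. At day 7, 6 of the 9 were higher and 1 lower, with a median log2 difference of 1.05. Of the 56 without it 15 were higher and 5 lower, with a median of 0.31. All units stood at 14.6% higher and 13.0% lower. Of the 6, Slc37a3, Slc49a4 and Slc51a kept the call with all day 0 signs turned, and Slc25a36, Slc35a5 and Slc36a1 lost it. The motif was chosen after the values were seen, so these figures are a description with no test. A match is a run of letters and not a shown binding site.

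The metal response core, TGCACNC or TGCGCNC on either strand, was searched because zinc carriers were among the transcripts that rose. It is shown for Slc30a1, the zinc exporter of the plasma membrane (plus strand, chr1:191906708-191906774), whose match lies on the other strand.
Slc30a1: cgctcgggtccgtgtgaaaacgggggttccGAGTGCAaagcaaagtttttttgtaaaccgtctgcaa
This core is common: it was in 31 of the 65 member genes (47.7%) and in 28.2% of all genes, with the same unlike sets. Of the 31 members with it 8 were higher and 2 lower at day 7, where 14.6% of all units were higher and 13.0% lower. Of the 34 without it 13 were higher and 4 lower, so the share that changed was no larger with it.

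Over the course, carrier transcripts stood higher more often than lower. Values are log2 of sample over reference, in which 1 unit is a factor of 2. A ratio carries no level of one gene against another. A transcript was called higher or lower where the adjusted p of limma's moderated test was under 0.05, after Benjamini-Hochberg adjustment over all 10639 units tested (genes and unnamed features). All 7 comparisons use the same day 0 arrays and are not independent of each other. At day 1, 9 of the 83 members (10.8%) were higher and 1 (1.20%) lower, against 4.99% and 5.92% of all units. At day 2 it was 16 (19.3%) and 2 (2.41%), against 9.05% and 8.04%. Day 3 had 17 (20.5%) higher and 5 (6.02%) lower, against 12.2% and 12.3%. Day 4 had 16 and 5, against 11.3% and 10.9%. In all units, calls in the 2 directions were nearly balanced on each of these days. At day 5 members numbered 22 (26.5%) higher and 4 (4.82%) lower, against 11.7% and 11.2%, and at day 6 18 (21.7%) and 5, against 12.2% and 12.6%. At day 7, 26 (31.3%) were higher and 7 (8.43%) lower, against 14.6% and 13.0% of all units. The median difference of the 83 members at day 7 was 0.35, against -0.01 over all units.

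**Figure D1:**
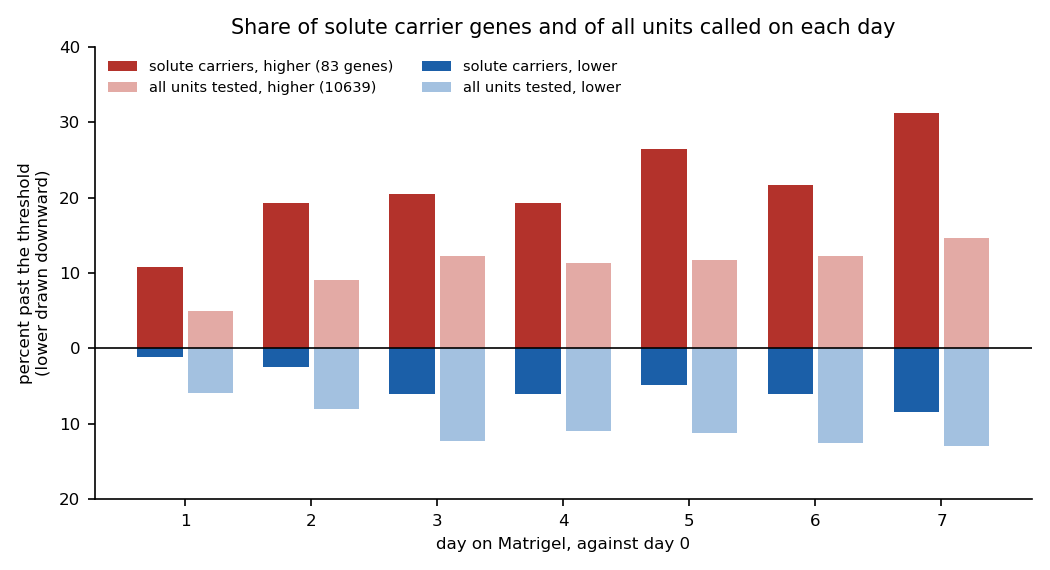
Share of the 83 solute carrier genes (dark bars) and of all 10639 units (pale bars) past the threshold on each day against day 0, in percent, with higher calls drawn upward and lower calls downward. The dark upward bars reach 10.8% at day 1 and 31.3% at day 7, above the pale ones on each day, and the dark downward bars stay below the pale ones.

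On single arrays the median log2 ratio of the 83 members was -0.06, -0.08 and 0.00 at day 0. On the arrays of days 1 to 7 it lay between 0.15 and 0.40, above each day 0 array. The excess of higher over lower calls at day 7 stayed with arrays scaled to one spread (30 higher, 10 lower) and with the late C arrays left out (27 and 7). All units stood at 17.0% higher and 15.0% lower with scaling, and at 17.4% and 14.2% without those C arrays. With all day 0 signs turned, 7 members (8.43%) were higher and 2 (2.41%) lower, against 5.82% and 5.74% of all units. Of single arrays, leaving out day 0 A gave 20 calls in place of 33, leaving out day 0 B gave 16, and leaving out day 7 C gave 20. The share of all units called was 17.6%, 15.2% and 18.9% in those fits, against 27.6% in the main fit. At day 1, 2 calls of 10 were left when day 0 A, day 0 B or day 1 A was dropped, and 3 when day 1 B or C was. In those fits the share of all units called lay between 3.1% and 5.86%, against 10.9% in the main fit.

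The moderated F-test over the course called 16 members (19.3%), against 16.3% of all units, so by that test the family stood near the background. The smallest adjusted p was that of Slc7a1 (0.000137), followed by Slc20a1, Slc25a51, Slc25a5, Slc25a36 and Slc66a2 (0.00101 to 0.0013). Without day 0 array A or B the F-test called 10 members, and 8.4% or 7.08% of all units. Of the 33 calls at day 7, 12 held when any 1 of the 6 arrays compared was left out. Those were Slc7a1, Slc1a5, Slc25a5, Slc25a36, Slc25a51, Slc31a1, Slc35f5, Slc35f6, Slc37a3, Slc44a1, Slc49a4 and Slc66a2. With all day 0 signs turned, Slc7a1, Slc25a5, Slc25a51, Slc35f6, Slc37a3, Slc49a4, Slc10a6 and Slc51a kept the call. The other 25 day 7 calls were lost. Slc7a1 was the 1 of 10 day 1 calls that held without any 1 array, and Slc7a1 (-0.96), Slc35f6 (0.93) and Slc39a14 (1.11) kept theirs with the signs turned.

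Other settings ended calls as well. With only the groups compared in the fit, 14 of the 33 day 7 calls were kept. That fit called 15.1% of all units, against 27.6% in the main one. Against the reference channel in place of the day 0 arrays, Slc25a17, Slc30a7, Slc30a9, Slc36a1, Slc38a2 and Slc39a13 missed the threshold at day 7, and Slc8a1, Slc49a4 and Slc66a2 at day 1. With only day 0 array C turned, 9 of the 33 were lost at day 7 (Slc12a2, Slc16a3, Slc30a7, Slc30a9, Slc35a5, Slc38a2, Slc39a13, Slc45a4 and Slc9a3r2) and Slc8a1 at day 1. With letter within period as a random block, Slc16a3, Slc25a17 and Slc39a13 were lost at day 7 (adjusted p = 0.0693, 0.0734 and 0.0547) and Slc66a2 at day 1 (adjusted p = 0.051). Scaling the arrays ended the day 7 calls of Slc10a6, Slc16a3, Slc20a1 and Slc35a1.

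**Figure D2:**
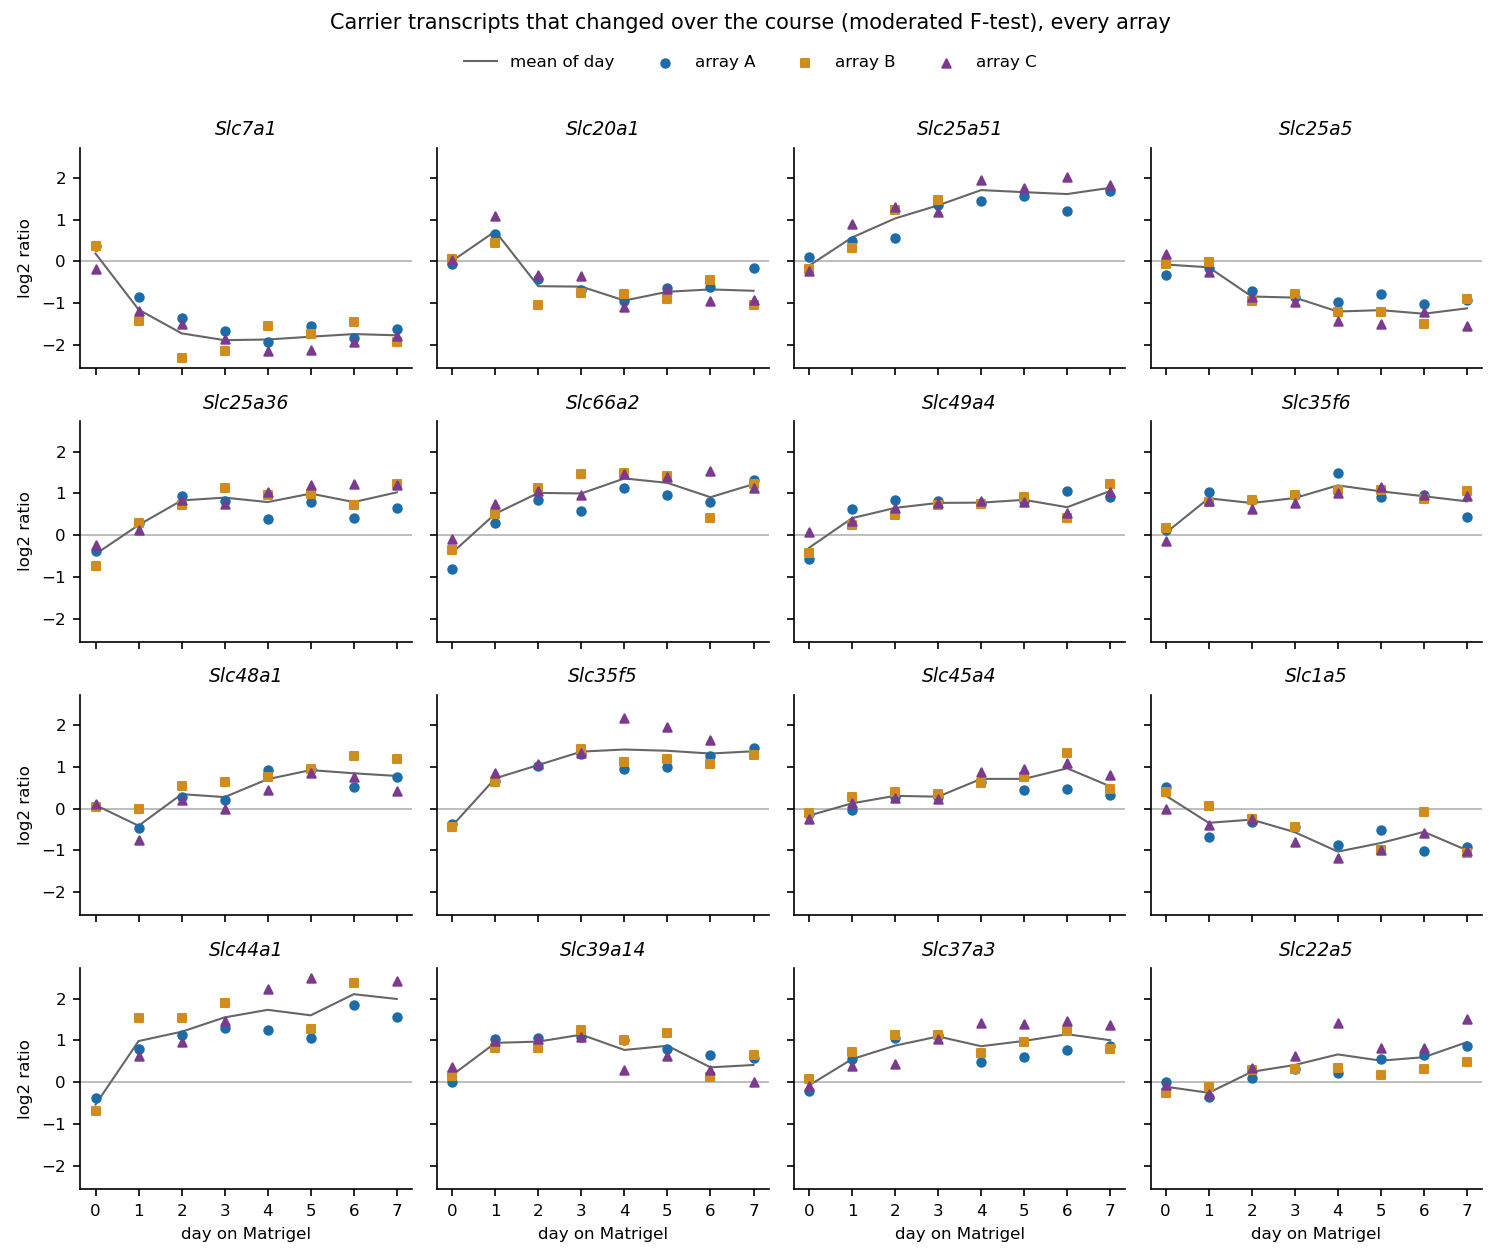
Log2 ratio of sample over reference on every array, by day, for the 16 members called by the F-test; points are arrays A, B and C and the line joins the means of the days. Slc7a1 falls from 0.37, 0.38 and -0.18 at day 0 to -1.44 or lower on every array from day 3 on, Slc25a51 and Slc44a1 rise to over 1 at day 7, and Slc20a1 is above 0 at day 1 and below it on every later array.

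Amino acid carriers held the deepest fall of the family. Of 11 tested of 23, 2 were higher at day 7 (Slc38a2, Slc36a1) and 2 lower (Slc7a1, Slc1a5), and the median was 0.27. This was 18.2% in each direction, near the 14.6% and 13.0% of all units. Slc7a1 encodes CAT-1, the carrier of arginine, lysine and ornithine at the plasma membrane. It read 0.37, 0.38 and -0.18 at day 0, -0.85, -1.42 and -1.19 at day 1, then -1.61, -1.92 and -1.78 at day 7. Across days 2 to 6 it lay between -2.32 and -1.36. No array of any later day reached the lowest day 0 array. The difference from day 0 was -1.34 ± 0.27 at day 1 (standard error of the fit, as for all errors below; adjusted p = 0.00367, limma) and -1.96 ± 0.27 at day 7 (adjusted p = 3.77e-05). With all day 0 signs turned it was -1.58 at day 7 (adjusted p = 0.000647).

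Slc1a5 encodes ASCT2, the exchanger that brings glutamine into growing cells. Its day 0 arrays were at 0.53, 0.41 and 0.00 and its day 7 arrays at -0.91, -1.06 and -1.02, with a single value of days 1 to 6, day 1 array B at 0.07, above 0. The day 7 arrays lay well below those of day 0. The difference was -0.65 ± 0.25 at day 1 (adjusted p = 0.0971) and -1.31 ± 0.25 at day 7 (adjusted p = 0.000826). It was -0.68 with all day 0 signs turned and then missed the threshold (adjusted p = 0.0783). Slc3a2, the heavy chain that amino acid exchangers pair with at the cell surface, stood at 0.27 ± 0.22 at day 7 (adjusted p = 0.36).

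Slc38a2 encodes SNAT2, a sodium-coupled carrier of alanine, serine and glutamine. Its values were -0.57, -0.99 and -0.40 at day 0, then 0.03, 0.33 and 1.71 at day 7. The groups did not overlap, and array C was far above the others at day 7. The difference was 1.34 ± 0.43 (adjusted p = 0.0248); it was lost without day 0 array A or B or without day 7 array C (0.83 to 1.67 over single-array removals), and was 0.04 with all day 0 signs turned. Slc36a1 encodes PAT1, which carries small amino acids with protons out of lysosomes. It read -1.06, -1.09 and 0.02 at day 0 and -0.02, 0.15 and 0.89 at day 7, so the groups overlapped. Its difference of 1.05 ± 0.34 (adjusted p = 0.0267) was lost without day 0 array A or B or day 7 array C (0.77 to 1.41), and turned to -0.37 with all day 0 signs turned. Slc7a6, Slc66a1, Slc38a1, Slc7a7, Slc38a4 and Slc38a9 lay between -0.13 and 0.83 and missed the threshold.

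Other transcripts of the response to amino acid shortage, from a list of ATF4 targets, were given by 10 tested genes of 18. At day 7, 3 were lower and 0 higher, against 13.0% and 14.6% of all units, with a median of -0.47. Shmt2 and Phgdh, enzymes of serine and glycine synthesis, were at -2.14 ± 0.55 and -1.88 ± 0.65, and Asns, asparagine synthetase, at -1.01 ± 0.30. Each call was lost without day 7 array C, and Asns and Phgdh also without day 0 array B or C. With all day 0 signs turned Shmt2 (-0.26) and Asns (-0.78) missed the threshold and Phgdh (-2.10) did not. Of 6 tested genes of lysosomal amino acid sensing 3 were higher at day 7, where 14.6% of all units were. They were Rragc at 1.43 ± 0.29, Lamtor3 at 1.25 ± 0.31 and Tsc1 at 1.16 ± 0.42. Rragc held under every alternative run, Lamtor3 was at 0.23 with all day 0 signs turned, and Tsc1 was lost without any 1 day 0 array or day 7 array C and with all day 0 signs turned (1.02).

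Sugar carriers were measured in small number, and none of the glucose carriers of the plasma membrane other than Slc2a4 was tested. Of 5 tested of 9, 2 were higher at day 7 and 0 lower, against 14.6% and 13.0% of all units, with a median of 0.06. Slc37a3 encodes a sugar-phosphate carrier family member of the lysosome. Its arrays read -0.22, 0.07 and -0.08 at day 0, 0.56, 0.72 and 0.38 at day 1, then 0.86, 0.79 and 1.37 at day 7. All arrays of days 1 to 7 lay above all of day 0. The difference was 0.63 ± 0.27 at day 1 (adjusted p = 0.144) and 1.08 ± 0.27 at day 7 (adjusted p = 0.00589), and it was 0.93 with all day 0 signs turned (adjusted p = 0.0288).

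Slc45a4, of a family of proton-coupled sugar carriers, moved late. It stood at -0.13, -0.11 and -0.26 at day 0, between -0.03 and 0.40 on the arrays of days 1 to 3, and between 0.33 and 1.33 on those of days 4 to 7. Its difference was 0.29 ± 0.21 at day 1 (adjusted p = 0.439) and 0.70 ± 0.21 at day 7 (adjusted p = 0.0183), and the latter call was lost without day 7 array C (0.56) and with all day 0 signs turned (0.37, adjusted p = 0.284). Slc37a4, the glucose-6-phosphate carrier of the endoplasmic reticulum that hepatocytes need to release glucose, was at -0.76 ± 0.43 (adjusted p = 0.189). Slc2a4, the insulin-responsive glucose carrier, was at -0.33 ± 0.23 (adjusted p = 0.305). Of 10 tested genes of glucose trapping and lactate 2 were higher and 0 lower at day 7, against 14.6% and 13.0% of all units. The 2 were Ldhb, a lactate dehydrogenase subunit, at 3.26 ± 0.58, and Txnip, an inhibitor of glucose uptake, at 2.31 ± 0.54. Both held under every alternative run. Slc16a3, the lactate exporter MCT4, read 0.33, -0.05 and 0.08 at day 0 and -0.88 and -0.46 on A and C of day 7. Its difference of -0.79 ± 0.27 (adjusted p = 0.0393) was lost with all day 0 signs turned (-0.55), with the random block (adjusted p = 0.0693), and in 5 of 6 single-array removals (-1.0 to -0.58), all but that of day 7 array B, which has no value for it.

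The Slc35 family, grouped here as nucleotide sugar carriers, included 13 tested of 16. At day 7, 5 (38.5%) were higher and 0 lower, against 14.6% and 13.0% of all units, with a median of 0.30. The group follows the family name and not the substrate of each member. The 5 include Slc35f5 and Slc35f6, without a settled substrate, and Slc35b2, which carries a sulfate donor. Slc35f5, a member with no settled substrate, rose early. It read -0.37 and -0.45 on A and B of day 0, with no value on C, 0.67, 0.65 and 0.86 at day 1, and 1.46 and 1.29 on A and B of day 7. The difference was 1.13 ± 0.32 at day 1 (adjusted p = 0.032) and 1.78 ± 0.36 at day 7 (adjusted p = 0.00161). It rests on 2 day 0 arrays, and the day 1 call was lost without either of them or any 1 day 1 array. With day 0 signs turned the differences were 0.32 at day 1 (adjusted p = 0.667) and 0.97 at day 7 (adjusted p = 0.0856).

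Slc35f6, another family member without a settled substrate, was at 0.13, 0.16 and -0.14 at day 0, 1.04, 0.79 and 0.81 at day 1, then 0.44, 1.05 and 0.93 at day 7. No later array fell to the day 0 level. Its differences were 0.83 ± 0.19 at day 1 (adjusted p = 0.00913) and 0.76 ± 0.19 at day 7 (adjusted p = 0.00651), and day 0 signs made little difference (0.86 at day 7 when turned). The day 1 call was lost without day 1 array A (adjusted p = 0.0504). The day 1 difference was thus no smaller than that of day 7, and the highest of the course was 1.14 ± 0.19, at day 4.

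Slc35b2 carries the sulfate donor PAPS into the Golgi apparatus. It was spread at day 0, at -0.93, -0.40 and 0.45, and overlapped with day 7, at 0.79, 1.41 and 0.25. The difference of 1.11 ± 0.37 (adjusted p = 0.0307) was lost without day 0 array A or B or without day 7 array A or B (0.79 to 1.48), and it was 0.52 with all day 0 signs turned (adjusted p = 0.402). Slc35a1, the carrier of CMP-sialic acid, read -0.41, -0.13 and 0.38 at day 0 and 0.77, 0.66 and 0.98 at day 7. Those groups did not overlap, and the difference of 0.86 ± 0.26 (adjusted p = 0.018) was lost without day 0 array A or B or day 7 array C (0.68 to 1.07) and with all day 0 signs turned (0.75, adjusted p = 0.0631). Slc35a5 stood at 0.04, -0.06 and -0.62 at day 0 and 0.64, 0.29 and 1.46 at day 7, without overlap. It differed by 1.01 ± 0.37 (adjusted p = 0.047) and was lost in all single-array removals but that of day 7 array B (0.68 to 1.26), and was at 0.59 with all day 0 signs turned (adjusted p = 0.339). The other 8 tested members, among them the UDP-sugar carriers Slc35d1 and Slc35d2, lay between -0.88 and 0.46 and missed the threshold.

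Carriers of ions were called no more often than all units. Of 10 tested of 19, 1 was higher at day 7 (Slc12a2, 10.0%) and 1 lower (Slc20a1, 10.0%), against 14.6% and 13.0% of all units. Their median was 0.01. Slc20a1 encodes PiT-1, which brings phosphate in with sodium. It read -0.07, 0.07 and 0.04 at day 0, 0.65, 0.44 and 1.08 at day 1, -0.41, -1.05 and -0.32 at day 2, then -0.15, -1.04 and -0.92 at day 7. Every day 1 array lay above day 0 and every later array below it. The differences were 0.71 ± 0.25 at day 1 (adjusted p = 0.0712) and -0.72 ± 0.25 at day 7 (adjusted p = 0.0366). Day 0 values are near 0, so turning their signs left -0.69 (adjusted p = 0.0763), and the day 7 call was lost in all single-array removals but that of day 7 array A (-1.0 to -0.55).

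Slc12a2 encodes NKCC1, the sodium, potassium and chloride cotransporter of secretory epithelia, and moved late. Its arrays stood at 0.12, -0.32 and -0.61 at day 0, -0.37, -0.12 and -0.40 at day 1, then 0.42, 1.01 and 0.58 at day 7. The day 7 arrays lay above all of day 0. The difference was -0.02 ± 0.33 at day 1 (adjusted p = 0.976) and 0.94 ± 0.33 at day 7 (adjusted p = 0.0368). The call was lost without day 0 array B or C or day 7 array B or C (0.77 to 1.14), and some of its 5 features differ in sign at day 7. It was 0.40 with all day 0 signs turned (adjusted p = 0.482) and 0.53 with day 0 array C alone turned (adjusted p = 0.235). Slc8a1, the sodium-calcium exchanger, was at -0.30, -0.40 and -0.43 at day 0 and 0.46, 0.70 and 0.34 at day 1, with a difference of 0.87 ± 0.24 at day 1 (adjusted p = 0.0252) and 0.59 ± 0.24 at day 7 (adjusted p = 0.0754). The day 1 call was lost in 5 of 6 removals (0.77 to 0.96), all but that of day 0 array C. It was 0.12 with all day 0 signs turned (adjusted p = 0.849), 0.59 with day 0 array C alone turned and 0.50 against the reference channel. Of the sodium pump, which sets the gradient that sodium-coupled carriers use, 2 of 9 listed subunits were tested. Atp1b1 stood at 2.04 ± 0.47 at day 7 (adjusted p = 0.0036), but at 0.16 with all day 0 signs turned.

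Metal carriers had the largest share of higher calls at day 1 among the groups with 5 or more tested genes: 3 of 11 tested of 15 were higher and 0 lower. Their 27.3% higher stood beside 25.0% for carriers of lipids, vitamins and cofactors and 4.99% of all units. At day 7, 5 (45.5%) were higher and 1 (9.09%) lower, against 14.6% and 13.0% of all units, with a median of 0.67. Slc30a1, the zinc exporter whose promoter stretch is shown above, read -0.31 and -0.15 on A and B of day 0, 0.95, 0.96 and 0.82 at day 1, and 0.77 and 1.58 on A and C of day 7. No array of days 1 to 7 came down to day 0. Its differences were 1.14 ± 0.35 at day 1 (adjusted p = 0.0498) and 1.40 ± 0.39 at day 7 (adjusted p = 0.0145). Both calls were lost without day 0 array A or B, that of day 7 also without day 7 array C (1.00 to 1.81) and that of day 1 without any 1 day 1 array (1.06 to 1.22). Turning all day 0 signs left 0.68 at day 1 (adjusted p = 0.324) and 0.95 at day 7 (adjusted p = 0.13).

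Slc39a14 and Slc39a10, which bring zinc into the cell and in the case of Slc39a14 also iron, were higher at day 1 and not at day 7. Slc39a14 stood at 0.00, 0.15 and 0.36 at day 0, 1.03, 0.82 and 0.98 at day 1, 1.08, 1.25 and 1.09 at day 3, then 0.58, 0.66 and 0.00 at day 7. The day 1 and day 3 arrays lay above all of day 0, and those of day 7 overlapped with it. The differences were 0.77 ± 0.23 at day 1 (adjusted p = 0.0357) and 0.24 ± 0.23 at day 7 (adjusted p = 0.451). Slc39a10 was at -0.66, -0.70 and 0.00 at day 0 and 0.54, 1.79 and 0.59 at day 1, a difference of 1.43 ± 0.38 (adjusted p = 0.0212), and at 0.56 ± 0.38 at day 7 (adjusted p = 0.285). The day 1 call of Slc39a14 was lost in 5 of 6 removals, all but that of day 0 array C (0.69 to 0.86), and that of Slc39a10 without day 0 array A or B or day 1 array B (1.02 to 1.65). With day 0 signs turned Slc39a10 was at 0.52 (adjusted p = 0.517).

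Slc30a4 loads zinc into vesicles. It was at 0.02, -0.29 and -0.23 at day 0 and 0.83, 1.14 and 2.45 at day 7, with array C highest. The difference of 1.64 ± 0.44 (adjusted p = 0.00934) was lost without day 7 array C (1.15) and with all day 0 signs turned (1.31, adjusted p = 0.0567). Slc31a1 encodes CTR1, the copper importer. It read -0.59, -0.42 and 0.16 at day 0 and 0.59, 1.03 and 1.02 at day 7, with no overlap, and its difference of 1.16 ± 0.28 (adjusted p = 0.00506) held without any 1 array but was 0.60 with all day 0 signs turned (adjusted p = 0.183). Slc30a7, a zinc carrier of the Golgi apparatus, stood at -0.42, -0.29 and -0.20 at day 0 and 0.34, 0.19 and 0.78 at day 7. Slc30a9, of the same family, was at -0.27, -0.33 and -0.23 at day 0 and 0.03, 0.40 and 0.76 at day 7. Neither overlapped between the days, and their differences of 0.74 ± 0.27 and 0.67 ± 0.24 were each lost in 5 of 6 removals (0.57 to 0.86 and 0.49 to 0.86), all but those of day 7 array B and day 7 array A. Turning all day 0 signs left 0.14 and 0.13 (adjusted p = 0.804 and 0.797), and the reference channel gave 0.44 and 0.40 (adjusted p = 0.0791 and 0.0716). Slc39a13, a zinc carrier of the Golgi apparatus, was at 0.23, 0.56 and 0.27 at day 0 and -0.63, -0.37 and -0.41 at day 7. It was lower by -0.82 ± 0.26 (adjusted p = 0.0235), and the call was lost without day 0 array B or day 7 array A (-0.89 to -0.72). It was -0.12 with all day 0 signs turned (adjusted p = 0.83), -0.47 against the reference channel (adjusted p = 0.0524), and was lost with the random block (adjusted p = 0.0547). Of 4 tested genes of iron handling 1, the transferrin receptor Tfrc, was lower at day 7, where 13.0% of all units were. Tfrc stood at -0.92 ± 0.30, and was lost without day 0 array A or B or day 7 array A or B, with arrays scaled, and with day 0 signs turned (-0.77). The iron exporter gene Slc40a1 had values on 4 arrays and was not tested.

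**Figure D3:**
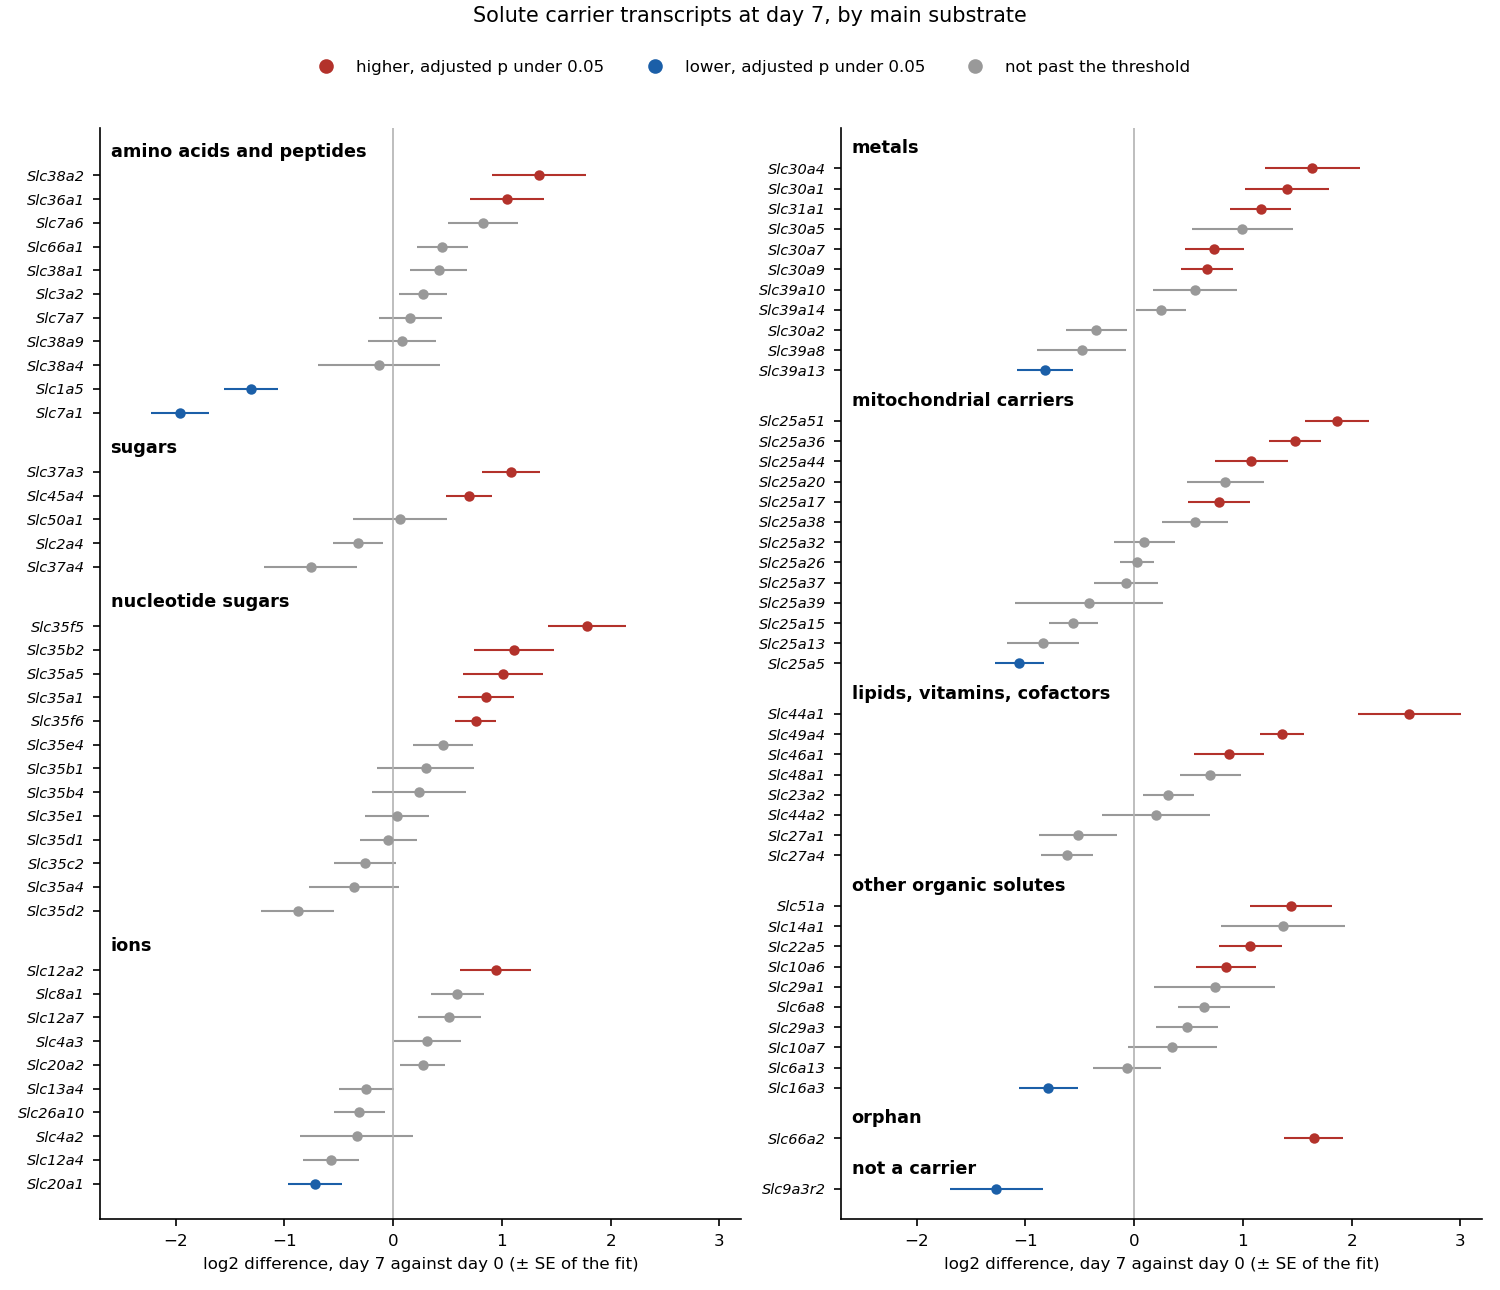
Log2 difference of day 7 from day 0 with its standard error for each of the 83 tested members, grouped by main substrate; red and blue mark adjusted p under 0.05. The 26 red points lie between 0.67 (Slc30a9) and 2.53 (Slc44a1), and the 7 blue points between -1.96 (Slc7a1) and -0.72 (Slc20a1).

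Among mitochondrial and related carriers of the Slc25 family, of 13 tested of 19, 4 were higher at day 7 and 1 lower, with a median of 0.09. These were 30.8% and 7.69%, against 14.6% and 13.0% of all units. Slc25a5 encodes ANT2, the ADP/ATP exchanger typical of dividing cells. Its arrays were at -0.33, -0.06 and 0.17 at day 0, -0.16, -0.01 and -0.25 at day 1, -0.72, -0.94 and -0.86 at day 2, then -0.92, -0.91 and -1.54 at day 7. Day 1 overlapped with day 0, and every array from day 2 on lay below both. The difference was -0.07 ± 0.22 at day 1 (adjusted p = 0.906) and -1.06 ± 0.22 at day 7 (adjusted p = 0.00185), and -1.20 with all day 0 signs turned. It held under every alternative run.

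Slc25a51 encodes the carrier that brings NAD into mitochondria. It read 0.11, -0.18 and -0.24 at day 0, 0.50, 0.33 and 0.89 at day 1, and 1.69 and 1.84 on A and C of day 7, with no value for array B on days 4 to 7. Arrays of days 1 to 7 all lay above day 0. Its 2 features differed in sign at day 1 (-0.25 and 0.97), and only 1 could be compared at day 7 (1.94). Averages of early and late days can thus rest on different features, and the part of this in the rise was not tested. The difference was 0.67 ± 0.26 at day 1 (adjusted p = 0.116) and 1.87 ± 0.29 at day 7 (adjusted p = 0.000298), and 1.66 with all day 0 signs turned (adjusted p = 0.00169). Slc25a36 exchanges pyrimidine nucleotides. It was at -0.39, -0.74 and -0.24 at day 0, 0.30, 0.30 and 0.12 at day 1, then 0.65, 1.23 and 1.19 at day 7. These arrays too lay above day 0, with a difference of 1.48 ± 0.24 at day 7 (adjusted p = 0.000173), but of 0.57 with all day 0 signs turned (adjusted p = 0.125).

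Slc25a44, the mitochondrial carrier of branched-chain amino acids, was at 0.01, -0.09 and -0.16 at day 0 and 0.70, 0.79 and 1.49 at day 7. All 3 day 7 arrays lay above day 0. The difference of 1.08 ± 0.34 (adjusted p = 0.022) was lost without day 0 array B or day 7 array C (0.83 to 1.22) and with all day 0 signs turned (0.92, adjusted p = 0.0794). Slc25a17, a cofactor carrier of peroxisomes, read -0.66, -0.47 and 0.04 at day 0 and 0.66, 0.46 and 0.13 at day 7, without overlap. Its difference was 0.78 ± 0.28 (adjusted p = 0.044), a call lost without day 0 array A or B or day 7 array A or B (0.63 to 0.98), and lost with the random block (adjusted p = 0.0734). It was 0.05 with all day 0 signs turned. Slc25a13 and Slc25a15, carriers that serve the urea cycle of hepatocytes, were at -0.84 ± 0.33 and -0.56 ± 0.23 (adjusted p = 0.0651 and 0.0722). Slc25a20, the acylcarnitine carrier of fatty acid oxidation, was at 0.84 ± 0.35 (adjusted p = 0.0842). The phosphate carrier gene Slc25a3 had values on 13 arrays and was not tested.

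Carriers of lipids, vitamins and cofactors held the largest rise of the family. Of 8 tested of 14, 3 (37.5%) were higher at day 7 and 0 lower, against 14.6% and 13.0% of all units, with a median of 0.51. Slc44a1 carries choline, the precursor of phosphatidylcholine. Its values were -0.38 and -0.69 on A and B of day 0, 0.79, 1.55 and 0.62 at day 1, and 1.56 and 2.43 on A and C of day 7. All arrays of days 1 to 7 lay far above the day 0 arrays with a value. The difference was 1.52 ± 0.43 at day 1 (adjusted p = 0.0321) and 2.53 ± 0.47 at day 7 (adjusted p = 0.00112). It was 1.46 at day 7 with all day 0 signs turned (adjusted p = 0.0557), and 0.45 at day 1 (adjusted p = 0.649). The day 1 call was also lost in 5 of 6 removals (1.24 to 1.71), all but that of day 0 array C, which has no value.

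Slc49a4 encodes a carrier of the lysosomal membrane. Its values were -0.57, -0.42 and 0.07 at day 0, 0.63, 0.25 and 0.33 at day 1, then 0.91, 1.22 and 1.04 at day 7. Every array of days 1 to 7 lay above day 0, and the letters agreed closely on days 3 to 5, between 0.73 and 0.91. The difference was 0.71 ± 0.20 at day 1 (adjusted p = 0.0289) and 1.36 ± 0.20 at day 7 (adjusted p = 9.32e-05). The day 7 call held under every alternative run (0.75 with all day 0 signs turned), and the day 1 call was lost without day 0 array A or B or day 1 array A or C (0.58 to 0.90), and was at 0.10 with the signs turned (adjusted p = 0.853).

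Slc48a1 returns heme from lysosomes to the cytosol and moved late. It read 0.05 and 0.12 on B and C of day 0, -0.46, -0.01 and -0.76 at day 1, then 0.96, 0.95 and 0.86 at day 5. Day 1 lay below day 0 and day 5 above it. The differences were -0.49 ± 0.28 at day 1 (adjusted p = 0.303), 0.84 ± 0.28 at day 5 (adjusted p = 0.0363) and 0.70 ± 0.28 at day 7 (adjusted p = 0.0674). Slc46a1, the proton-coupled folate carrier, was at 0.16, -0.37 and 0.04 at day 0 and 0.07, 1.19 and 1.19 at day 7, which overlap. Its difference of 0.88 ± 0.32 (adjusted p = 0.049) was lost in all removals but that of day 7 array A (0.69 to 1.25) and with all day 0 signs turned (0.76, adjusted p = 0.135). The fatty acid importers Slc27a4 and Slc27a1 were at -0.62 ± 0.24 and -0.52 ± 0.36 (adjusted p = 0.0636 and 0.288).

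Carriers known to sit in the lysosomal membrane were drawn together after their values were seen. Of these 7 tested genes, Slc36a1, Slc37a3 and Slc49a4 were higher at day 7 and 0 were lower, with a median of 0.70. All units stood at 14.6% higher and 13.0% lower. Slc38a9, Slc66a1, Slc29a3 and Slc48a1 lay between 0.08 and 0.70 and missed the threshold. Slc66a2, an orphan of the same family as the lysosomal Slc66a1 and not in that list, read -0.82, -0.36 and -0.09 at day 0, 0.29, 0.50 and 0.74 at day 1, then 1.32, 1.22 and 1.12 at day 7. Its arrays of days 1 to 7 all lay above day 0. The difference was 0.94 ± 0.27 at day 1 (adjusted p = 0.031) and 1.65 ± 0.27 at day 7 (adjusted p = 0.000237), but 0.80 at day 7 with all day 0 signs turned (adjusted p = 0.0632). Its day 1 call was lost in 5 of 6 removals (0.74 to 1.11), all but that of day 0 array C, with the random block (adjusted p = 0.051), and with the signs turned (0.08, adjusted p = 0.91).

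Carriers of other organic solutes included those of bile acids, steroids and carnitine. Of 10 tested of 22, 3 were higher at day 7 and 1, Slc16a3 above, lower, with a median of 0.69. All units stood at 14.6% higher and 13.0% lower. Slc51a encodes the alpha subunit of the bile acid and steroid exporter at the basolateral membrane. It was at 0.04, -0.09 and -0.20 at day 0, 0.43, 0.32 and 0.53 at day 1, then 1.16, 0.68 and 2.23 at day 7. All these arrays lay above day 0, and C stood highest at day 7. The difference was 0.51 ± 0.38 at day 1 (adjusted p = 0.447) and 1.44 ± 0.38 at day 7 (adjusted p = 0.00866), 1.27 with all day 0 signs turned (adjusted p = 0.0337), and lost without day 7 array C (1.00). Slc22a5, the carnitine importer OCTN2, was at 0.00, -0.25 and -0.07 at day 0 and 0.88, 0.48 and 1.52 at day 7. These groups did not overlap, and the difference of 1.07 ± 0.29 (adjusted p = 0.00932) was lost without day 7 array C (0.79) and with all day 0 signs turned (0.85, adjusted p = 0.0579).

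Slc10a6, a carrier of sulfated steroids, read 0.00, 0.10 and -0.09 at day 0 and 0.60, 1.47 and 0.48 at day 7, without overlap. The difference of 0.85 ± 0.28 (adjusted p = 0.0271) was lost without any 1 day 0 array or day 7 array B (0.54 to 1.04), and held with the signs turned (0.85, adjusted p = 0.0493). Slc14a1, a urea carrier, was at 1.37 ± 0.57 (adjusted p = 0.0788). Slc9a3r2, named after a sodium-proton exchanger, encodes a scaffold protein and is no carrier. It read -0.22, 0.35 and 0.72 at day 0 and -0.67 and -1.31 on A and C of day 7, without overlap. The difference was -1.27 ± 0.43 (adjusted p = 0.0375), a call lost without day 0 array B or C or day 7 array C (-1.59 to -0.95) and with the signs turned (-0.70, adjusted p = 0.327).

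Carriers typical of mature hepatocytes and of bile ducts were measured in part only. Of 20 listed hepatocyte carriers 5 were tested, and at day 7 0 were called in either direction, with a median of -0.56. All units stood at 14.6% higher and 13.0% lower. The 5 were Slc39a14, Slc38a4, Slc25a13, Slc25a15 and Slc37a4, and at day 1 Slc39a14 alone was higher, against 4.99% of all units. Before adjustment, limma put 2 of the 5 under 0.05 at day 7, Slc25a13 and Slc25a15, both lower, where 20.2% of all units were lower and 20.6% higher by that measure. Of 8 bile duct carriers 2 were tested, Slc12a2, given above, and the bicarbonate exchanger gene Slc4a2, at -0.34 ± 0.52 (adjusted p = 0.66). The bile acid importer Slc10a1, the glucose carriers Slc2a1 and Slc2a2, and Slc7a5, Slc16a1, Slc11a2, Slc25a1 and Slc25a4 were not listed under these symbols and are not analysed here. Slc7a11, the cystine importer, had values on 3 arrays. Of the 140 genes 57 were not tested, with values on 1 to 22 arrays and a median of 11.

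The ABC transporters, which unlike solute carriers split ATP, gave 9 tested genes. At day 7, 1 was higher and 1 lower, against 14.6% and 13.0% of all units. At day 7 Abca1, the cholesterol exporter, was at 2.42 ± 0.35 (adjusted p = 6.23e-05) and Abcc3, an exporter of bile acids and conjugates, at -1.77 ± 0.23 (adjusted p = 2.92e-05). Both held under every alternative run, and Abcc3 was already at -1.42 ± 0.23 at day 1 (adjusted p = 0.000952). Of 4 tested glutathione genes Gpx1 was lower at day 7, where 13.0% of all units were. It stood at -1.01 ± 0.32, a call lost without day 0 array B or day 7 array C and with the signs turned (-0.69).

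Late days were compared with early ones directly, days 5 to 7 against days 1 to 3, without day 0 in the contrast. Same-lettered arrays were linked within each period, and the main fit treats them as independent. Among the 83 members, 6 (7.23%) were higher late and 3 (3.61%) lower, against 3.51% and 4.23% of all units. Higher late were Slc12a2 (0.82 ± 0.19, adjusted p = 0.0139), Slc48a1 (0.78 ± 0.14, adjusted p = 0.00458), Slc51a (0.76 ± 0.22), Slc25a51 (0.70 ± 0.17), Slc22a5 (0.55 ± 0.16) and Slc45a4 (0.50 ± 0.12). Lower late were Slc25a5 (-0.57 ± 0.13, adjusted p = 0.0131), Slc20a1 (-0.54 ± 0.14) and Slc39a14 (-0.47 ± 0.13). Slc7a1, which had fallen by day 1, differed by only -0.18 ± 0.15 (adjusted p = 0.457). With arrays scaled to one spread, 2 were higher and 2 lower, where all units stood at 3.2% and 4.4%. With letter within period as a random block in limma, 0 members were called, so all 9 calls were lost. That setting called only 4 of all units (0.0376%), so the loss was not particular to carriers. The count of members was 4 without day 7 array C (4.06% of all units). It was 5 without any 1 of day 1 C, day 2 A, day 2 C, day 3 C, day 5 C and day 6 C (4.17% to 6.04% of all units).

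**Figure D4:**
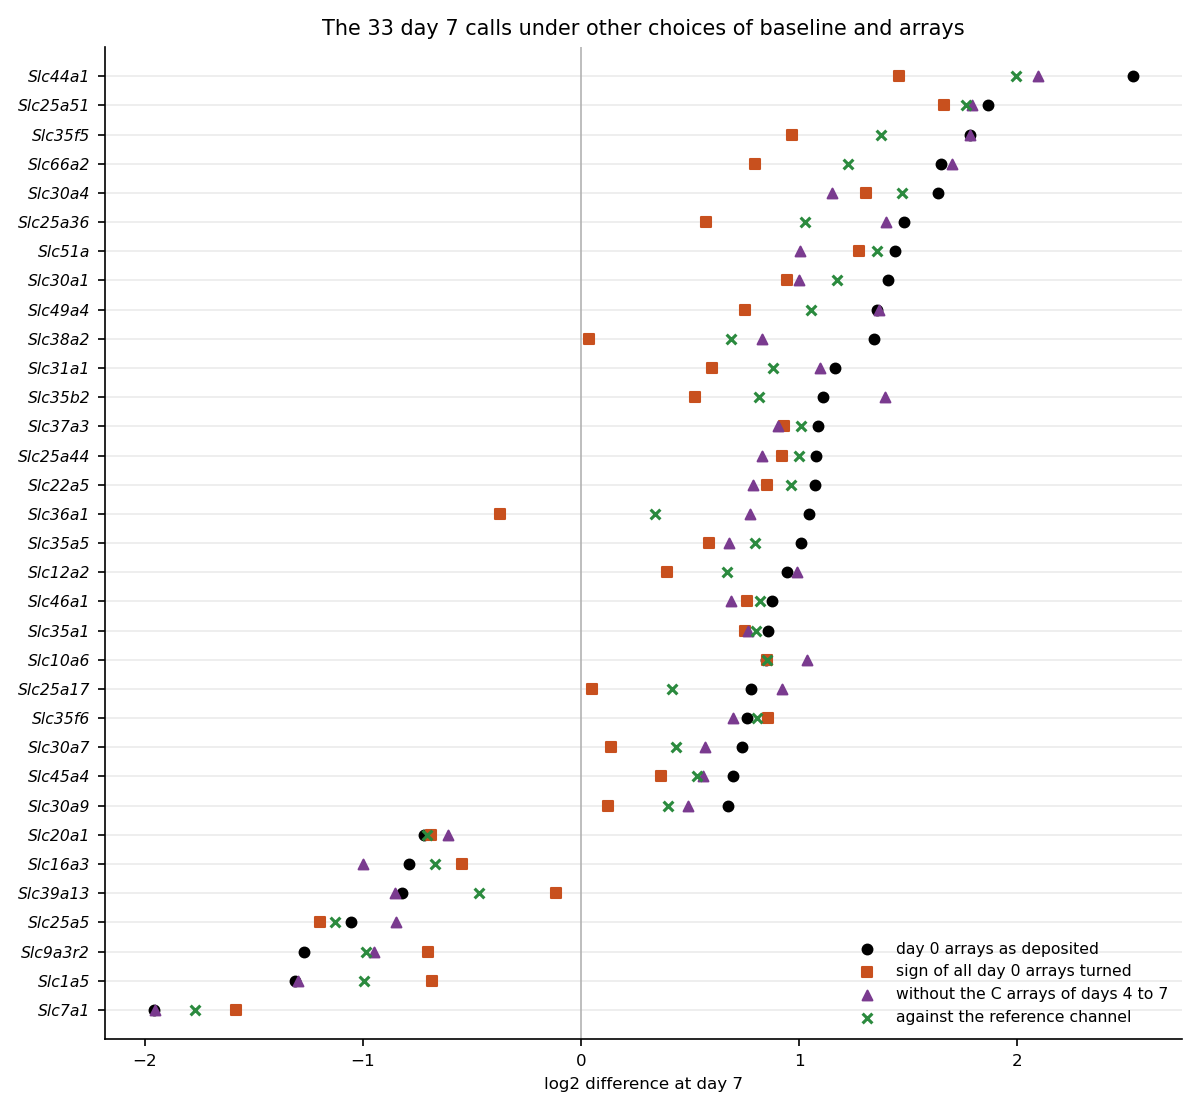
Log2 difference at day 7 of the 33 members called, with the day 0 arrays as deposited (circles), with all day 0 signs turned (squares), with the late C arrays left out (triangles) and against the reference channel (crosses). Slc7a1 stays at -1.58 or lower and Slc25a51 at 1.66 or higher in all 4, while Slc36a1 goes from 1.05 to -0.37 with the signs turned.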

How the data were processed

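RNA of 24 arrays, 3 on each of 8 days, was set against a common reference of undifferentiated cells. The deposited values are log ratios, read as log2 with Cy5 as numerator; log base, direction, scaling and normalization are each not given in the sources used here, and the authors' array medians lay between -0.0253 and 0.0295. If the direction is the opposite one, every sign turns and no p-value changes. Spot intensities were not used, so the signal behind each value is unknown and the number of arrays limits the precision.

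Of 24157 features 13908 were listed in the platform annotation, 13319 with 1 symbol and 589 with several genes, and 10249 were not listed and stay unnamed. Symbols of 13290 features were updated through gene identifiers. Arrays were centred on their median, and features of a gene were averaged. Units with at least 2 values on each day (10639) entered 1 linear model with a mean for each day over all 24 arrays (lmFit and eBayes of limma 3.58.1, R 4.3.3), with statmod 1.5.0 for random blocks. Contrasts were each day against day 0, days 5 to 7 against days 1 to 3, and a moderated F-test over the course. The threshold was an adjusted p of 0.05 (Benjamini-Hochberg over all units), and missing values were left missing. The fit was tested on simulated data. Every tested carrier could be named, with array values for those called at day 7 or by the F-test, and a list of well-known carriers was reported whatever its p. The members and lists were chosen with earlier results of these data known, and substrate groups follow textbook knowledge. Alternatives were centring, scaling, filters, feature medians, blocks by letter, only the groups compared, day 0 signs, the reference channel as baseline, the late C arrays, and leaving out each array. Promoter sequences were matched by symbol to RefSeq entries of build GRCm38.p6.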

Additional observations from a re-analysis of the deposited data

Results flagged for a closer look

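In 9 carrier genes the change from day 0 differed between late days (5 to 7) and early days (1 to 3), by limma's test of that difference in the same fit. The log2 difference, late minus early, was 0.82 for Slc12a2, 0.78 for Slc48a1, 0.76 for Slc51a, 0.70 for Slc25a51, 0.55 for Slc22a5 and 0.50 for Slc45a4. It was -0.57 for Slc25a5, -0.54 for Slc20a1 and -0.47 for Slc39a14. Slc12a2, Slc25a5, Slc45a4 and Slc48a1 kept the call without any 1 array, and the other 5 lost it in at least 1 removal. Removals that ended the call numbered 15 for Slc22a5, 13 for Slc39a14, 12 for Slc51a, 6 for Slc20a1 and 3 for Slc25a51. With letter within period as a random replicate block (consensus correlation 0.493) all 9 calls were lost, with adjusted p from 0.135 to 0.344. That setting called 4 of all units (0.0376%). With arrays scaled to one spread Slc25a5, Slc45a4, Slc22a5, Slc25a51 and Slc51a were lost.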

How the results depend on the processing

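Counts of carrier genes past the threshold moved by over 1.5 times under several settings, and the cause was not tested. The share of all units past it moved as well, and is given beside them. In the main fit that share was 10.9%, 17.1%, 24.4%, 22.2%, 22.9%, 24.8% and 27.6% on days 1 to 7. It was 7.74% for late against early days and 16.3% by the F-test. With arrays scaled to one spread carrier counts were 30 at day 1 (30.6% of all units), 35 at day 2 (34.0%), 34 at day 3 (34.3%) and 32 at day 4 (25.3%). For late against early days the count was 4 (7.59%), and by the F-test 27 (25.0%). With only the groups compared fitted, which leaves fewer arrays, carrier counts were 27, 31, 37, 12, 11, 14 and 14 on days 1 to 7. The shares of all units were 24.2%, 31.3%, 35.9%, 11.4%, 10.5%, 13.6% and 15.1%. Turning all day 0 signs gave 4, 7, 10, 10, 10, 15 and 9, and 7 by the F-test. The shares of all units were then 4.84%, 10.4%, 12.8%, 14.1%, 12.6%, 16.7% and 11.6%, and 10.2% by the F-test. With the late C arrays left out carrier counts were 20 at day 1 (21.3% of all units), 29 at day 2 (31.1%) and 31 by the F-test (29.8%). A value on every array gave 14 at day 3 (23.4%), over fewer genes, and the reference channel as baseline gave 32 at day 4 (32.2%). Leaving out 1 array at a time gave 2 to 15 at day 1, 8 to 17 at day 2, 10 to 21 at day 3, 13 to 24 at day 4, 13 to 26 at day 5, 15 to 27 at day 6, 16 to 31 at day 7, 4 to 11 for late against early days and 10 to 19 by the F-test. The share of all units then lay between 3.1% and 14.7% at day 1 and between 15.2% and 29.1% at day 7. Of the named day 1, day 7 and late calls 1 turned in sign under a setting: Slc36a1 at day 7, to -0.37 with all day 0 signs turned. Turning every array was not run as a fit, since it changes every sign and no p.

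Deviations of same-lettered arrays from their day means correlated at -0.544 to 0.912, with 52 of 84 pairs over 0.1. Within days 1 to 3 all 9 pairs were over 0.1 (0.194 to 0.441), and within days 4 to 7 all 18 (0.142 to 0.912). Between these periods 21 of 36 were, and with day 0 2 of 9 and 2 of 12. Arrays of a letter were thus linked within these periods, and not steadily across the series. The main fit has no replicate block and treats them as independent. With the letter as a fixed replicate block the carrier counts were 14, 22, 24, 29, 29, 30 and 41 on days 1 to 7, 13 for late against early days and 22 by the F-test. All units were called at 14.7%, 22.6%, 29.9%, 27.9%, 28.7%, 31.3% and 34.4% on these days, and at 14.5% and 24.2% in the other 2 tests. With letter within period as a random replicate block (consensus correlation 0.493) carrier counts were 11, 18, 19, 23, 27, 25 and 32. These are days 1 to 7 in order, and the count was 0 for late against early days and 19 by the F-test. The share of all units then lay between 9.94% at day 1 and 29.2% at day 7. It was 0.0376% for late against early days and 18.3% by the F-test.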
